A study of Mus musculus with 36 samples.

Results

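The samples described here are 6 of the 36 RNA libraries of a study of liver regeneration in young and old mice. They are the 3 libraries from old livers at the time point labelled 48 and the 3 from old livers at the time point labelled 72, and they were chosen by age and time point in the sample titles. The mice were C57BL/6JN, a common inbred strain. Old mice were 18 months of age. The other libraries used for comparison were old livers before regeneration and at 96, and young livers (4 months) at 48 and 72, with 3 biological replicates in each group. All mice were of the same strain, no transgene or drug is named, and the labels give neither the unit of the time points nor the way regeneration was induced. RNA came from frozen whole liver and was depleted of ribosomal RNA, so the libraries hold RNA of every cell type of the organ, and fewer cells of a type cannot be told apart from less RNA per cell. Values are gene counts, printed as CPM, each gene's count relative to the library's total, with totals scaled by the TMM method. The albumin gene Alb, a defining hepatocyte product, stood at 4768, 4057 and 9078 CPM at 48 and at 7449, 9267 and 7827 CPM at 72.

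After loss of tissue, hepatocytes leave quiescence, replicate their DNA and divide, while the rest of the liver goes on with metabolism. DNA replication genes peak in S phase. Genes of the spindle, the centromere and cyclin B peak later, in G2 and mitosis, and their transcription is known to depend on the MuvB complex with B-MYB and FOXM1, acting through CHR and CCAAT elements of the promoter. The step from 48 to 72 in the old liver was compared to ask which of these programmes differed between the time points, and the same step in young liver was used to ask whether the ages differed in it.

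The 3 libraries at 48 did not resemble each other. The distance between libraries was the root mean square difference of log2 CPM over the tested genes. Old 48 replicate 2 lay 1.098 from its own group on average, against 0.557 to 0.957 for the other 35 libraries of the study. Old 48 replicate 3 lay 0.604 from the libraries at 72, nearer than to its own group (0.957). Old 48 replicate 1 was also nearer to the libraries at 72 (0.864) than to its own group (0.923). Both own-group averages include the distance to replicate 2, and replicates 1 and 3 lay 0.781 from each other. The 3 libraries at 72 lay 0.649, 0.640 and 0.723 from each other on average. Total counts of the 6 libraries ran from 4242166 to 4909023, and 15803 to 16834 genes had a count, with old 48 replicate 2 the deepest of them. The biological coefficient of variation was 40.7% at 48, 27.7% at 48 without replicate 2, and 24.9% at 72. Y-linked transcripts, which mark male mice, were found in 1 library of each group: replicate 1 at 48 (210.5 CPM over 4 genes) and replicate 3 at 72 (176.7 CPM), with 0 CPM in the other 4.

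**Figure D1:**
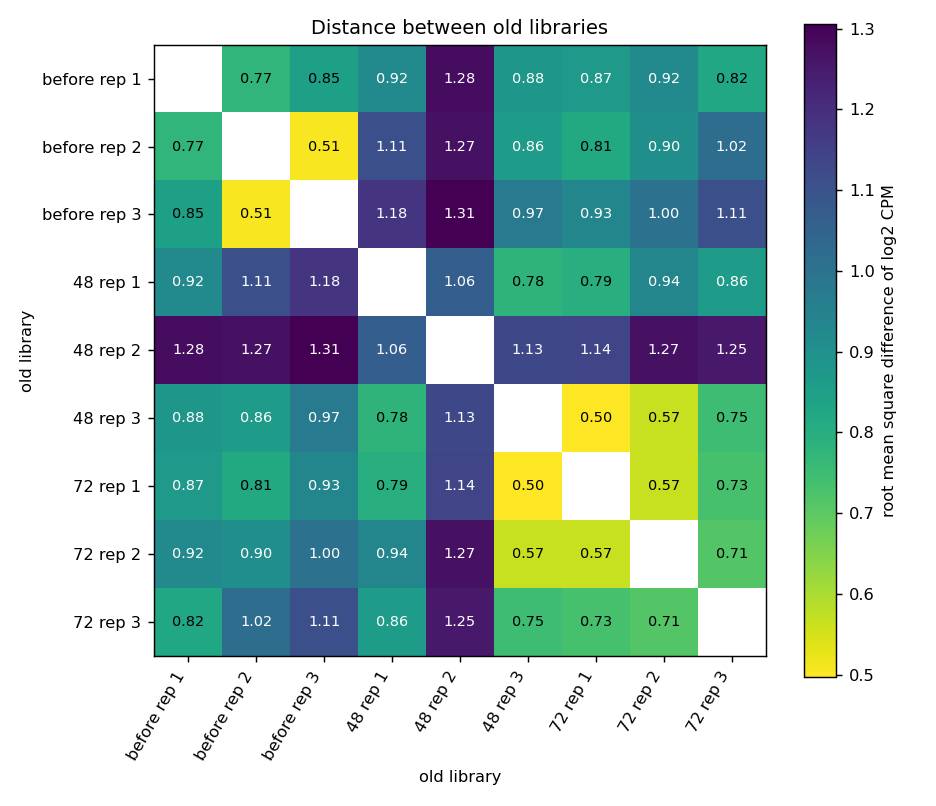
Each cell gives the root mean square difference of log2 CPM between 2 old libraries, before regeneration, at 48 and at 72; rows and columns are libraries and darker cells are larger distances. Old 48 replicate 2 stands far from every other library (1.06 or more), while old 48 replicate 3 stands 0.50 from a library at 72.

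Old 48 replicate 2 stood apart in many genes. Among 10019 genes with at least 10 CPM in a library, 327 were at least 2-fold higher there than in each of the other 5 libraries and 764 were at least 2-fold lower, against 2 to 121 higher and 19 to 77 lower for any other library. Pdk4, the kinase that shuts pyruvate out of oxidation, was at 1933 CPM there and at most at 128 CPM elsewhere. Plin4, a coat protein of lipid droplets, was at 619 CPM against at most 27.0 CPM. The lipopolysaccharide co-receptor gene Cd14 was at 364 CPM against at most 13.8 CPM. At the other end, the organic anion transporter gene Slc22a7 had 0 counts in replicate 2 and 8.22 to 76.7 CPM in the others, and the hepatic P450 gene Cyp2c54 had 0 counts against 25.3 to 68.5 CPM. A count of 0 in this library allows up to 0.608 CPM (3 counts, counting error only). Log2 fold changes below are given with this library and, where the text says so, without it.

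Between 48 and 72, edgeR's quasi-likelihood test over all 36 libraries called 393 of 13436 genes (2.92%) at an adjusted p under 0.05, 212 higher at 72 (1.58%) and 181 lower (1.35%). Without old 48 replicate 2 the same test called 12 of 13682 genes (0.0877%), 6 in each direction (0.0439%), and 9 of these were also among the 393. The direction was shared much more widely than the call, since the fold change of 391 of the 393 genes had the same sign without replicate 2 and 347 had an unadjusted p under 0.05. The median size of the log2 fold change over the 393 genes was 1.28 with the library and 0.93 without it. In 321 of the 393 genes (81.7%) replicate 2 was the most extreme of the 6 libraries on the side that enlarges the difference, while it was the highest or the lowest of 6 in 60.2% of all tested genes. The 60.2% counts both sides, so it is not a like measure for the 81.7%. By side, replicate 2 was the lowest in 174 of the 212 rising genes, against 30.2% of all tested genes. It was the highest in 147 of the 181 falling genes, against 30.1% of all tested genes. Values of the groups did not overlap in 297 of the 393 genes (75.6%), against 14.6% of all tested genes.

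Other libraries also moved the count of calls. It was 234 without old 48 replicate 1, 1569 without old 48 replicate 3, 642 without old 72 replicate 1, 11 without old 72 replicate 2 and 28 without old 72 replicate 3. Of the 13 gene lists below with 2 or more calls, 13 had 0 calls left without old 72 replicate 2, 12 without old 48 replicate 2, and 9 without old 72 replicate 3. With the spread estimated from these 6 libraries alone, edgeR called 0 of 12382 genes, with 985 at an unadjusted p under 0.05; without replicate 2 it again called 0 of 12609 genes, with 909 at that level. Limma's voom test with a weight for each library gave replicate 2 the lowest weight of the 36 (0.163) and called 21 genes (0.156%), 12 higher at 72 (0.0893%) and 9 lower (0.067%). With scaling to total counts in place of TMM, 73.0% of the calls were higher at 72, against 53.9% with TMM, and the median gene moved by 0.077 on the log2 scale.

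**Figure D2:**
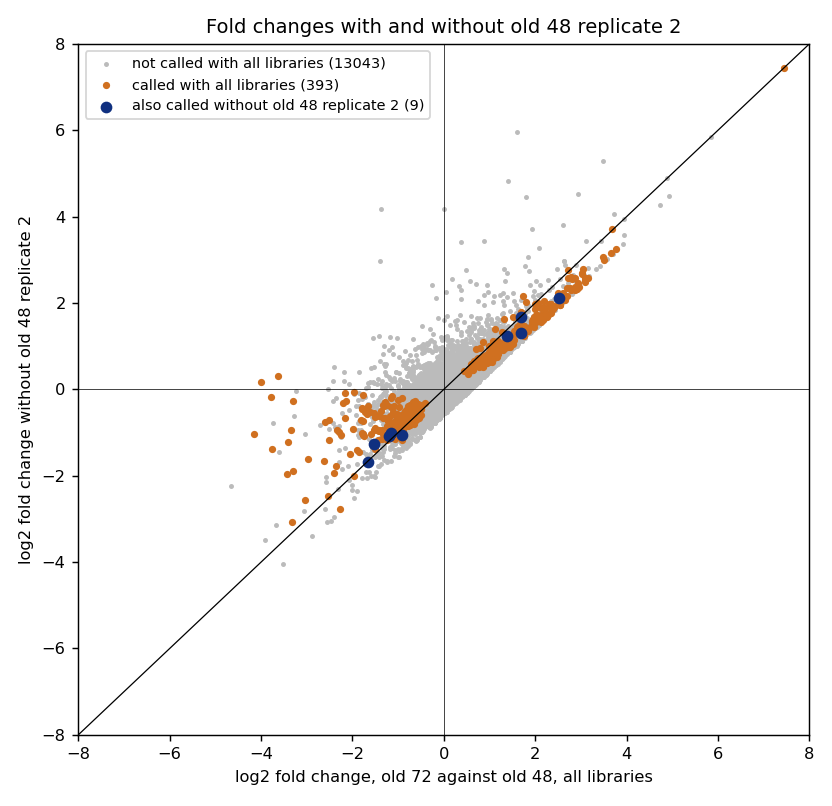
Each point is a gene, with its log2 fold change of old 72 against old 48 over all libraries on the x axis and without old 48 replicate 2 on the y axis; the diagonal marks equal values. Most of the 393 called genes lie nearer to 0 on the y axis than on the x axis, and the 9 genes called both ways lie close to the diagonal.

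Genes of mitosis were higher at 72 than at 48. Of 64 listed and tested genes, 24 rose and 0 fell, against 1.58% of all tested genes that rose. All 64 had a positive log2 fold change, with and without replicate 2. The median was 2.08 over all libraries and 1.601 without replicate 2, beside -0.01 and 0.01 over all tested genes. In 53 of the 64 genes every library at 72 was above every library at 48, against 8% of all tested genes. The list's mean log2 CPM was 2.29, 0.43 and 3.77 in the libraries at 48 and 4.09, 5.23 and 4.85 at 72, so the lowest library at 72 stood above the highest at 48. Before regeneration it was 1.94, 1.16 and 0.33, which puts replicate 2 at 48 inside the range of the resting liver. Without replicate 2 the number of genes called was 0, and 53 of the 64 had an unadjusted p under 0.05, against 61 with it. The number of called genes was also 0 without old 72 replicate 2 and without old 72 replicate 3, 2 without old 48 replicate 1, 37 without old 72 replicate 1 and 59 without old 48 replicate 3.

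**Figure D3:**
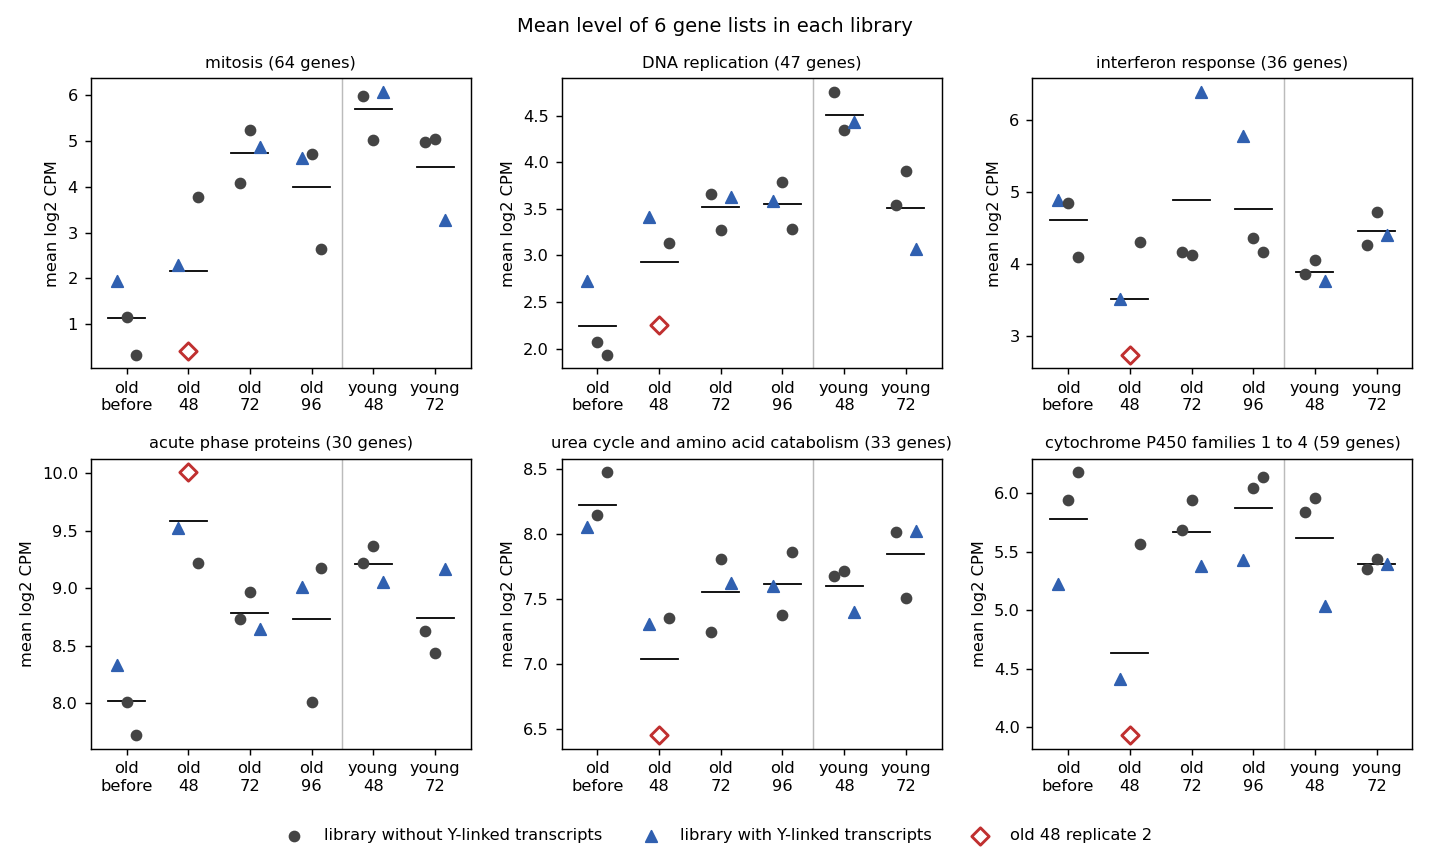
Mean log2 CPM of 6 gene lists (y axes, a different range in each panel) in each library of old liver before regeneration, at 48, 72 and 96, and of young liver at 48 and 72; lines are group means. In the mitosis panel the 3 libraries of old 72 (4.09 to 5.23) lie above the 3 of old 48 (0.43 to 3.77), and in the interferon panel 1 library of old 72 stands alone at 6.39.

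The promoters of 2 called mitosis genes are printed to show matches to the sequences of the elements named above. They are the called genes with the smallest p among those with a match, so the matches in them are not a finding. The 250 bases before the RefSeq start (build GRCm38.p6, minus strand for both genes) are printed 5′ to 3′ in lower case. Capitals mark each match to CCAAT or TTTGAA, and whether a match is a working element was not tested. Both strands were searched for CCAAT, for the CHR core TTTGAA and for the E2F-type sequence GCGGGAA, and the matches do not overlap.
Ccnb2, chr9:70421555-70421804: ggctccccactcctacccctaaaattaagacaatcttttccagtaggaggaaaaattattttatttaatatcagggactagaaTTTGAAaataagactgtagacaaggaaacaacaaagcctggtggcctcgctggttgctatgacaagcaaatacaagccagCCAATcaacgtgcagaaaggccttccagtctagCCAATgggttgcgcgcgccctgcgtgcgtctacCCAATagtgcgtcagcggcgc
Aurka, chr2:172370571-172370820: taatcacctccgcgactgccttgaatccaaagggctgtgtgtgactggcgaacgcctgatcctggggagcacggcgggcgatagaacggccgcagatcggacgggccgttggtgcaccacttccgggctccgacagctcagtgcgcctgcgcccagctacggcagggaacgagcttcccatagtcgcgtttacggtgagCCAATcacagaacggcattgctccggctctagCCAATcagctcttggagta
The Ccnb2 window held 3 CCAAT, at 87, 54 and 21 bases before the start, and 1 TTTGAA at 167. The Aurka window held 2 CCAAT, at 51 and 19 bases, and no TTTGAA. It lies inside the gene span given below for Aurka, so these distances refer to a start within that span. Of the 24 called mitosis genes, 19 had an entry in the RefSeq promoter table (20 entries), and CCAAT stood in 95.0% of these windows, against 75.9% of the windows of all tested mitosis genes and 35.1% of those of all tested genes. TTTGAA stood in 45.0%, 40.7% and 11.1% of the same windows. GCGGGAA stood in 0% of the mitosis windows, in 27.3% of the windows of tested DNA replication genes and in 6.42% of all. These are matches of letters and say nothing of binding.

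Ccnb2, cyclin B2 (chr9:70407689-70421554), was at 2.22, 0.405 and 3.48 CPM in the libraries at 48 and 10.3, 18.7 and 18.4 CPM at 72, each in the order of replicates 1, 2 and 3, as throughout. Its log2 fold change, printed here and below with ± its standard error, was 2.94 ± 0.61 (adjusted p = 0.016, edgeR quasi-likelihood test), and 2.45 without replicate 2 (adjusted p = 0.122). Aurka, the kinase that matures the spindle poles (chr2:172356190-172370886), was at 6.89, 5.27 and 14.3 CPM and then 22.4, 60.8 and 37.1 CPM. Adjusted p-values of single genes below come from edgeR's quasi-likelihood test. The groups did not overlap in either gene, and replicate 3 was the highest library at 48 in both. Aurka rose by 2.18 ± 0.47 on the log2 scale (adjusted p = 0.0194, edgeR) and had 1.91 without replicate 2 (adjusted p = 0.143).

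Cenpa, the histone variant of the centromere, went from 3.33, 3.04 and 7.98 CPM to 13.5, 30.7 and 19.3 CPM, with a log2 fold change of 2.13 ± 0.47 (adjusted p = 0.0205, edgeR; 1.89 without replicate 2). The spindle protein gene Ckap2 went from 4.89, 3.44 and 22.1 CPM to 36.3, 97.6 and 74.1 CPM, with 2.76 ± 0.62 (adjusted p = 0.0231, edgeR; 2.35 without replicate 2). Ccnb1, cyclin B1, had 1.56, 0 and 9.0 CPM at 48, where the replicate 2 value is a count of 0, and 13.8, 43.1 and 34.1 CPM at 72, and rose by 3.08 ± 0.73 (adjusted p = 0.0277, edgeR; 2.50 without replicate 2). These genes repeat a pattern of low values in replicates 1 and 2 and a higher value in replicate 3 at 48, with all values at 72 above it. The 24 genes that rose had log2 fold changes from 1.41 to 3.10, and from 1.17 to 2.54 without replicate 2.

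Several standard proliferation markers had positive fold changes that did not pass the test. Mki67, the antigen of cycling cells and the most abundant mitosis gene not called, was at 154, 14.0 and 561 CPM at 48 and 577, 1364 and 1100.4 CPM at 72, with a log2 fold change of 2.06 ± 0.74 (adjusted p = 0.113, edgeR; 1.503 without replicate 2). Replicate 3 at 48 lay just under the lowest library at 72. Top2a, which untangles chromosomes, had 1.62 ± 0.68 (adjusted p = 0.186; 1.06 without replicate 2), Cdk1, the mitotic kinase, 2.01 ± 0.63 (adjusted p = 0.0739; 1.56 without replicate 2), Ccna2, cyclin A2, 1.90 ± 0.60 (adjusted p = 0.0739; 1.37 without replicate 2), and Foxm1, the transcription factor of the mitotic genes, 1.82 ± 0.62 (adjusted p = 0.0988; 1.32 without replicate 2), all by edgeR. In each of these 5 genes the lowest library at 72 was above the highest at 48, and replicate 2 was the lowest of all 6.

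DNA replication genes showed no call. Of 47 tested genes, 0 passed edgeR's test in either direction with all libraries and 0 without replicate 2; 13 and 2 of them, respectively, had an unadjusted p under 0.05. The median log2 fold change was 0.42, and 0.21 without replicate 2. A positive fold change was seen in 44 of the 47 genes, and in 37 without replicate 2. In 14 of the 47 every library at 72 was above every library at 48, against 8% of all tested genes. In 36 of the 47 genes replicate 2 was the lowest of the 6 libraries, against 30.2% of all tested genes. The list's mean log2 CPM was 3.41, 2.26 and 3.14 at 48 and 3.66, 3.27 and 3.62 at 72, so the ranges overlapped. Mcm2, a subunit of the replicative helicase, was at 57.3, 12.2 and 23.3 CPM and 46.8, 23.9 and 32.7 CPM, with 0.16 ± 0.46 (adjusted p = 0.893) and -0.21 without replicate 2. Rrm2, the regulated subunit of ribonucleotide reductase, was at 35.1, 16.8 and 30.3 CPM and 41.3, 24.3 and 47.5 CPM. Both genes overlapped between the time points. The methylation maintenance factor Uhrf1 had 15.1, 0.203 and 12.9 CPM and 19.7, 8.19 and 20.5 CPM, where the value of replicate 2 is a single count.

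Clustered histone genes, whose messages lack poly(A) tails and can be seen here because RNA was not selected by its tail, had no call either. Of 54 tested genes 0 were called, with 2 at an unadjusted p under 0.05 (0 without replicate 2). Their mean log2 CPM was 3.85, 1.30 and 4.54 at 48 and 4.21, 4.48 and 4.17 at 72, and replicate 2 was the lowest of 6 in 52 of the 54. Their median was 0.56 with replicate 2 and 0.09 without it. A positive fold change was seen in 51 of the 54, and in 36 without replicate 2. The groups did not overlap in 2 genes that were higher at 72 and in 1 that was lower. Both shares lie below those of all tested genes (8% and 6.6%). Hist1h1e, the most abundant linker histone gene of the list, was at 269, 276 and 309 CPM and 284, 432 and 277 CPM. Histone genes are near-identical copies, so counts of single members are uncertain.

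Among DNA repair and checkpoint genes, 4 of 34 rose and 0 fell, against 1.58% of all tested genes that rose. Without replicate 2, 0 were called. Mastl, the kinase that holds phosphatase PP2A off in mitosis, was at 6.00, 7.09 and 11.7 CPM and 17.2, 31.4 and 32.2 CPM (log2 1.70 ± 0.35, adjusted p = 0.016, edgeR; 1.602 without replicate 2), with replicate 2 inside the range of its group. The helicase gene Pif1 went from 0.667, 0 and 6.14 CPM to 10.3, 32.3 and 19.9 CPM, with 3.16 ± 0.76 (adjusted p = 0.0285; 2.58 without replicate 2). Wee1, the kinase that delays mitotic entry, had 8.67, 3.44 and 12.3 CPM and 22.2, 22.9 and 19.1 CPM, with 1.39 ± 0.36 (adjusted p = 0.0346; 1.03 without replicate 2), and Parpbp, a regulator of homologous recombination, 1.11, 0.810 and 5.73 CPM and 8.21, 23.2 and 15.7 CPM, with 2.59 ± 0.67 (adjusted p = 0.0347; 2.17 without replicate 2). The mismatch repair gene Msh6, the most abundant one not called, had 66.5, 35.7 and 48.9 CPM and 64.6, 50.8 and 61.3 CPM.

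Genes that brake or start the cell cycle were less uniform. Of 26 tested CDK inhibitors and p53 targets, 2 rose and 0 fell, against 1.58% of all tested genes that rose. Cdkn2c, which encodes the CDK4 and CDK6 inhibitor p18, was at 16.2, 13.2 and 40.7 CPM and 59.5, 119 and 58.8 CPM (log2 1.76 ± 0.38, adjusted p = 0.0194, edgeR; 1.47, adjusted p = 0.149, without replicate 2). The Polo-like kinase gene Plk2 had 28.5, 19.4 and 17.8 CPM and 35.7, 36.5 and 76.4 CPM, with 1.18 ± 0.29 (adjusted p = 0.0291; 1.11 without replicate 2). Cdkn1a, which encodes the CDK inhibitor p21, was at 54.9, 191 and 69.7 CPM and 39.6, 43.5 and 73.3 CPM, a log2 fold change of -1.01 ± 0.58 that did not pass the test (0.346) and was -0.25 without replicate 2. Of 27 cell cycle regulators 0 were called. Ccnd1, cyclin D1, the G1 cyclin of the regenerating liver, was at 448, 40.5 and 658 CPM and 582, 223 and 370.1 CPM; replicate 2 was the lowest by far and the others overlapped. Myc had 30.01, 38.5 and 27.4 CPM and 19.3, 11.5 and 29.5 CPM. Of 43 chromatin regulators 0 were called, and Ezh2, the catalytic subunit of Polycomb complex PRC2, had 9.56, 4.66 and 10.4 CPM and 13.3, 20.8 and 13.2 CPM (log2 0.94 ± 0.33, adjusted p = 0.106, edgeR; 0.66 without replicate 2). Cbx5, heterochromatin protein HP1 alpha, the most abundant of them, had 167, 138 and 182 CPM and 180.4, 209.9 and 169 CPM.

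The genes named for holding their call both with and without replicate 2 were 4 that rose and 4 that fell, and none of them is on the mitosis list. The rule also asked for a mean of at least 1 CPM and for groups without overlap. Hnmt, which methylates and inactivates histamine (chr2:24002911-24049758), was at 6.89, 2.23 and 9.20 CPM at 48 and 20.7, 34.4 and 49.8 CPM at 72, and at 49.3, 30.2 and 46.1 CPM before regeneration. Its log2 fold change was 2.52 ± 0.40 (adjusted p = 0.00204, edgeR) and 2.12 without replicate 2 (adjusted p = 0.0249). All 3 libraries at 48 were below the lowest library before regeneration, and at 72 replicate 1 was below it too.

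Mettl7a1, a lipid droplet-associated methyltransferase-like protein (chr15:100304145-100330001), went from 175, 61.4 and 232 CPM to 368, 596 and 547 CPM, with 1.69 ± 0.29 (adjusted p = 0.00475, edgeR; 1.31 without replicate 2, adjusted p = 0.0249). Ccl9, a chemokine of myeloid cells (chr11:83572917-83578636), went from 48.7, 67.7 and 92.0 CPM to 118, 238 and 317 CPM, with 1.69 ± 0.29 (adjusted p = 0.0041; 1.67 without replicate 2, adjusted p = 0.037). Abca2, a lipid transporter of lysosomes (chr2:25428599-25448544), went from 49.8, 44.8 and 80.6 CPM to 118, 150.5 and 189.9 CPM, with 1.39 ± 0.21 (adjusted p = 0.00204; 1.23, adjusted p = 0.0249). For Ccl9 replicate 2 lay between the other libraries at 48, and for the other 3 rising genes it was the lowest.

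Of the falling genes, 3 are described. Sgk1, the serum and glucocorticoid-regulated kinase (chr10:21882184-21999903), was at 186, 175 and 178 CPM at 48 and fell to 74.1, 45.9 and 50.5 CPM, close to its level before regeneration (55.6, 51.4 and 69.4 CPM). Its log2 fold change was -1.66 ± 0.28 (adjusted p = 0.00349, edgeR) and -1.67 without replicate 2 (adjusted p = 0.0249). Atrn, attractin, a membrane protein of melanocortin signalling (chr2:130906430-131030333), fell from 413, 442 and 277 CPM to 194, 157 and 139.6 CPM, with a log2 fold change of -1.21 ± 0.17 (adjusted p = 0.00101, the smallest of the genes named here; -1.07 without replicate 2, adjusted p = 0.0198). Pawr, a pro-apoptotic WT1 partner (chr10:108332189-108414391), fell from 43.1, 26.1 and 32.3 CPM to 17.7, 14.3 and 21.8 CPM, with a log2 fold change of -0.91 ± 0.20 (adjusted p = 0.0194; -1.06, adjusted p = 0.0249). These 3 genes stood higher at 48 than before regeneration, with log2 fold changes of 1.61, 1.11 and 1.23, each called (adjusted p at most 0.000175, edgeR), and none differed by the test between 72 and before (adjusted p from 0.324 to 0.936).

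**Figure D4:**
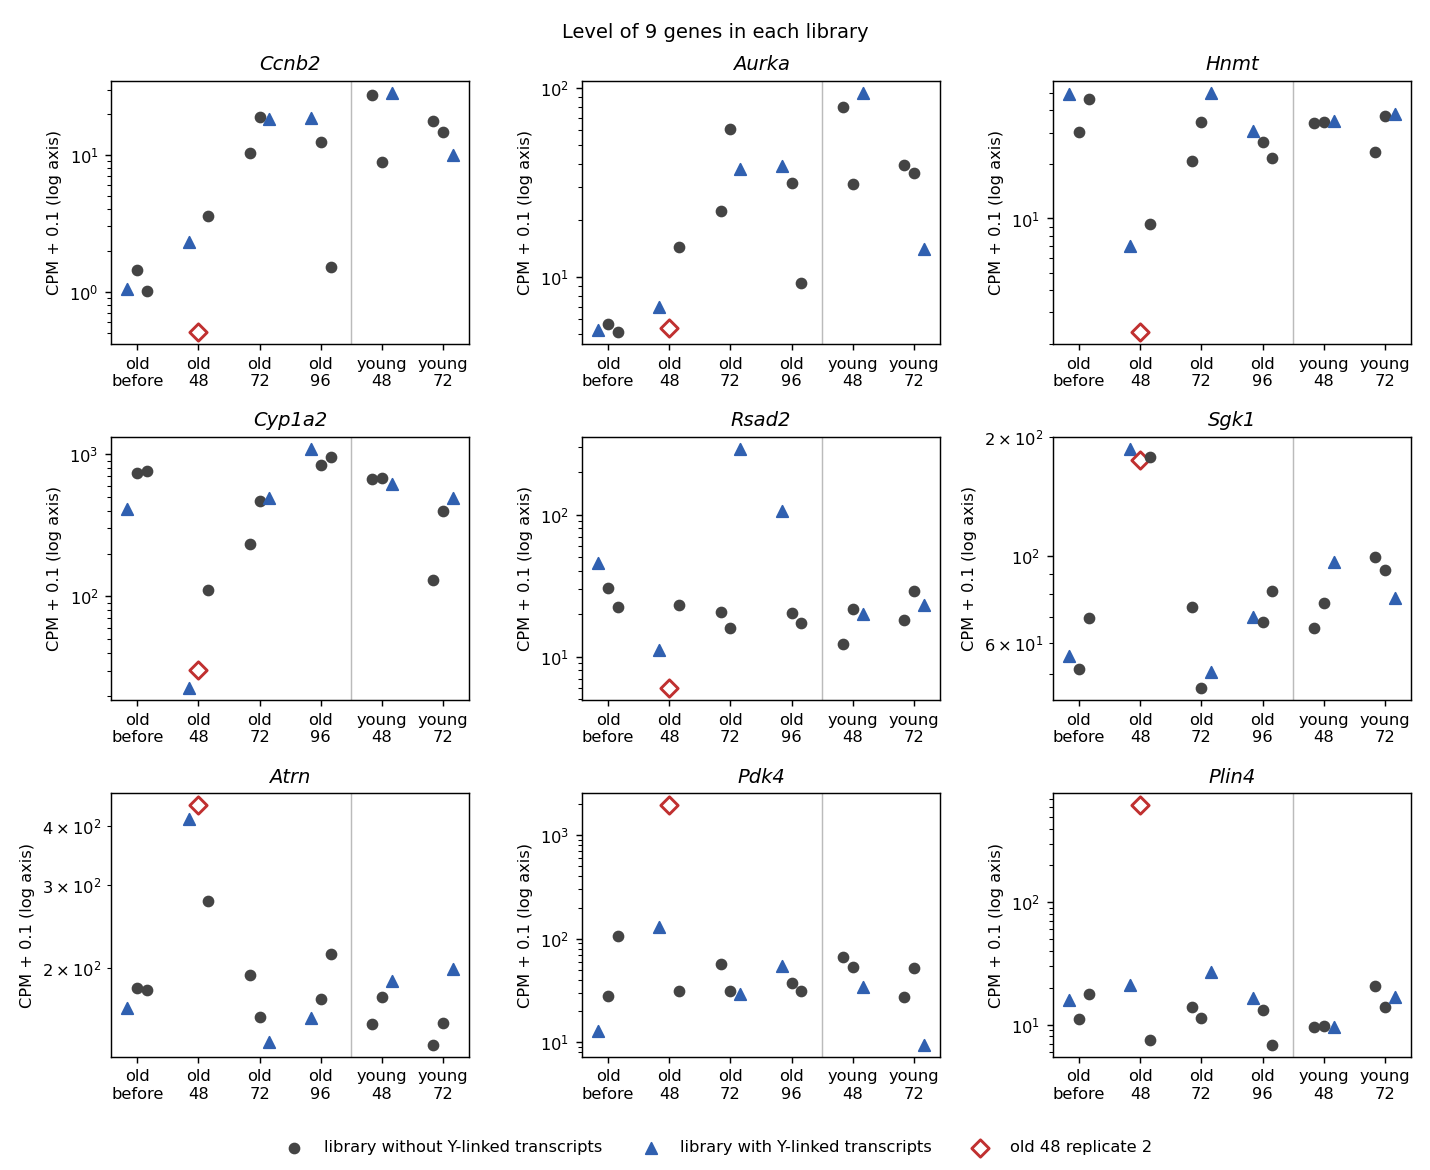
CPM plus 0.1 on a log axis for 9 genes in each library of the groups named below the axes. Sgk1 and Atrn stand high in all 3 libraries of old 48, whereas Pdk4 and Plin4 stand high only in old 48 replicate 2 and Rsad2 is highest in the library with Y-linked transcripts at 72.

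Genes of hepatocyte metabolism were mixed. Of 59 tested cytochrome P450 genes of families 1 to 4, which oxidise drugs, steroids and fatty acids, 4 rose and 0 fell. Of all tested genes, 1.58% rose. In the list 46 of 59 had a positive fold change (median 0.60, and 0.34 without replicate 2, when 0 were called). Their mean log2 CPM was 4.41, 3.93 and 5.56 at 48 and 5.68, 5.95 and 5.38 at 72, beside 5.23, 5.94 and 6.19 before regeneration. Cyp1a2, a pericentral enzyme of xenobiotic metabolism, went from 22.5, 30.2 and 110.5 CPM to 232, 468 and 491 CPM (log2 2.87 ± 0.56, adjusted p = 0.0101, edgeR; 2.58, adjusted p = 0.103, without replicate 2). Cyp2f2, a periportal enzyme, went from 54.5, 14.8 and 124 CPM to 147, 258 and 376 CPM, with 2.02 ± 0.49 (adjusted p = 0.0287; 1.55 without replicate 2). The groups did not overlap for either, and replicate 3 was again the library at 48 nearest to 72. Cyp2a5, a coumarin hydroxylase, had 3.06 ± 0.75 (adjusted p = 0.0294; 2.78 without replicate 2) and Cyp3a59 1.70 ± 0.48 (adjusted p = 0.0498; 1.80 without replicate 2); members of P450 subfamilies share sequence, so their counts are uncertain. Cyp4a14, a fatty acid hydroxylase and the most abundant member not called, had 1853, 1900.1 and 857 CPM and 1412, 419 and 256 CPM.

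Among 33 genes of the urea cycle and amino acid catabolism, 2 rose and 1 fell, against 1.58% and 1.35% of all tested genes. Their median was 0.51 (0.33 without replicate 2, when 0 were called). The list's mean log2 CPM was 7.31, 6.45 and 7.36 at 48 and 7.25, 7.80 and 7.62 at 72, under the 8.06 to 8.48 of the resting liver. Uroc1, of histidine breakdown, went from 92.9, 36.3 and 226 CPM to 280.1, 351 and 306 CPM (1.40 ± 0.36, adjusted p = 0.033, edgeR; 0.97 without replicate 2), and Aldh4a1, of proline breakdown, from 205, 51.7 and 271 CPM to 336, 379.6 and 381 CPM (1.06 ± 0.30, adjusted p = 0.0492; 0.62 without replicate 2). Tat, tyrosine aminotransferase, a glucocorticoid-responsive gene, fell from 2245, 4094 and 1199.8 CPM to 819.5, 582 and 1109 CPM (-1.59 ± 0.38, adjusted p = 0.0285; -1.03 without replicate 2). The methionine adenosyltransferase gene Mat1a had 7577, 9149 and 4090.4 CPM and 3585, 3144 and 1821 CPM, with no overlap, and did not pass (-1.28 ± 0.38, adjusted p = 0.0598; -1.03 without replicate 2). Of 25 bile acid genes 0 were called (7 at an unadjusted p under 0.05), and Cyp7a1, the rate-limiting enzyme of bile acid synthesis, ranged widely in both groups, with 62.0, 1.01 and 538 CPM and 124, 540.3 and 331 CPM. The uptake transporter gene Slco1b2 had 888, 55.5 and 811 CPM and 889.9, 949.6 and 546 CPM, low only in replicate 2.

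Hepatocyte identity genes held 1 call, against 1.58% of all tested genes that rose, and 0 calls without replicate 2. Of 18 hepatocyte transcription factor genes, 1 rose: Foxa2, a pioneer factor of the hepatocyte, from 32.9, 28.8 and 39.3 CPM to 48.6, 75.6 and 57.1 CPM (0.84 ± 0.19, adjusted p = 0.0262, edgeR; 0.75 without replicate 2). Hnf4a, the central hepatocyte factor, was at 1413, 1459.7 and 1359.8 CPM and 1384, 1595 and 1481 CPM, a log2 fold change of 0.08 ± 0.13 (adjusted p = 0.812; 0.11 without replicate 2). Alb had 0.46 ± 0.23 (adjusted p = 0.275; 0.24 without replicate 2), and Afp, the fetal albumin homologue, had 6.00, 21.5 and 17.8 CPM and 17.0, 25.0 and 13.8 CPM. Of 19 genes of glucose and glycogen metabolism, 2 rose, against 1.58% of all tested genes. Pygl, liver glycogen phosphorylase, went from 156, 101 and 182 CPM to 237, 329 and 311 CPM (1.00 ± 0.18, adjusted p = 0.00748; 0.79, adjusted p = 0.0736, without replicate 2). Pck1, of gluconeogenesis, had 5495, 5862 and 4261 CPM and 3207, 2029.8 and 3728 CPM and was not called. Of 72 nuclear genes of oxidative phosphorylation and 7 oncofetal genes, 0 were called, with 2 in each list at an unadjusted p under 0.05 and medians of 0.03 and -0.22; the most abundant were Atp5a1, an ATP synthase subunit, with 693, 647 and 558 CPM and 631, 675 and 642 CPM, and the imprinted gene Peg3, with 44.9, 212 and 85.5 CPM and 92.4, 56.4 and 28.5 CPM.

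Of 35 genes of fatty acid oxidation and ketogenesis 5 fell and 0 rose, against 1.35% of all tested genes that fell, and 7 of the 35 had a positive fold change. The median was -0.43, and -0.40 without replicate 2, when 0 were called; without the libraries that hold Y-linked transcripts it was -0.04. Ehhadh, of peroxisomal beta-oxidation, went from 854, 2686 and 400.5 CPM to 459, 228 and 300.0 CPM (-2.00 ± 0.42, adjusted p = 0.0181, edgeR; -0.92 without replicate 2). Hadha, of the mitochondrial trifunctional protein, went from 277, 226 and 161 CPM to 164, 124 and 104 CPM and kept its size without replicate 2 (-0.76 ± 0.18, adjusted p = 0.0275; -0.74, adjusted p = 0.134). Pdk4 had 128, 1933 and 31.3 CPM and 57.1, 30.9 and 28.9 CPM, so its -4.16 ± 0.92 (adjusted p = 0.0205) became -1.02 (adjusted p = 0.587) without replicate 2.

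Of 21 genes of lipid droplets and fat storage, 4 fell and 0 rose, against 1.35% of all tested genes that fell. A positive fold change was seen in 7 of the 21 (median -0.77, and -0.55 without replicate 2, when 0 were called). Plin2, the main droplet coat protein of the hepatocyte, had 578, 1398 and 235 CPM and 336, 187 and 252 CPM (-1.51 ± 0.35, adjusted p = 0.0271, edgeR; -0.64 without replicate 2). The fatty acid binding protein gene Fabp4 had 11.1, 38.5 and 1.84 CPM and 1.44, 0.936 and 2.68 CPM (-3.30 ± 0.65, adjusted p = 0.0132; -1.88), and the lipase inhibitor gene Hilpda 9.56, 56.3 and 3.89 CPM and 5.54, 2.11 and 4.40 CPM (-2.52 ± 0.60, adjusted p = 0.0277; -0.71). In all 3 genes replicate 3 at 48 lay among the libraries at 72. Plin4 turned direction, from -3.63 ± 0.85 (adjusted p = 0.0275) to 0.32 (adjusted p = 0.871) without replicate 2. Apoa4, a lipoprotein component and the most abundant gene of the list, had 14563, 4945 and 3336 CPM and 5649.9, 2043 and 2744 CPM.

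Of 22 genes of de novo lipogenesis 3 rose and 1 fell, against 1.58% and 1.35% of all tested genes. Thrsp, an activator of fatty acid synthesis, went from 18.4, 12.8 and 17.0 CPM to 24.6, 41.9 and 249.8 CPM (2.72 ± 0.66, adjusted p = 0.0285, edgeR; 2.58 without replicate 2), with the high value in the library that holds Y-linked transcripts; without both such libraries it was 1.16. Its level before regeneration was 1362, 1423 and 2299 CPM. Srebf1, the master regulator of the pathway, went from 43.8, 93.0 and 72.8 CPM to 111, 183 and 165 CPM (1.13 ± 0.31, adjusted p = 0.0444; 1.39 without replicate 2). Acss2, which makes acetyl-CoA, went from 19.3, 14.99 and 27.4 CPM to 27.9, 51.2 and 86.7 CPM (1.43 ± 0.40, adjusted p = 0.0479; 1.25 without replicate 2). Elovl5, which elongates polyunsaturated fatty acids, fell from 1712, 704 and 1012 CPM to 875, 509.9 and 419.8 CPM (-0.93 ± 0.26, adjusted p = 0.0472; -1.17). Scd1, the desaturase, had 1866, 3838 and 541 CPM and 104, 302 and 1305 CPM, a spread within groups that left -1.87 ± 0.88 uncalled (adjusted p = 0.239; -1.07 without replicate 2). Of 24 cholesterol synthesis genes, Ebp rose and Hsd17b7 fell, against 1.58% and 1.35% of all tested genes, and 0 were called without replicate 2. Ebp went from 159, 72.9 and 186 CPM to 186, 339 and 272 CPM (0.93 ± 0.23, adjusted p = 0.0312, edgeR, and 0.63 without replicate 2). Hsd17b7 went from 204, 505 and 111 CPM to 77.8, 103 and 128 CPM (-1.41 ± 0.40, adjusted p = 0.0481, edgeR, and -0.61 without replicate 2).

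Acute phase genes, which the liver makes under interleukin 6, stood lower at 72. Of 30 tested genes 2 fell and 0 rose, against 1.35% of all tested genes that fell. In 27 the fold change was negative. In 14 every library at 72 was below every library at 48, against 6.6% of all tested genes. The median was -0.83, and -0.45 without replicate 2, when 0 were called. The list's mean log2 CPM was 9.53, 10.01 and 9.22 at 48, 8.74, 8.97 and 8.64 at 72, and 8.33, 8.01 and 7.72 before regeneration, so the groups did not overlap. Serpina3m, a protease inhibitor with near-identical neighbours, fell from 648, 2315 and 540.0 CPM to 416, 432 and 367 CPM (-1.53 ± 0.43, adjusted p = 0.049, edgeR; -0.55 without replicate 2). Cd14 had 13.8, 364 and 7.77 CPM and 12.1, 6.55 and 9.38 CPM, and its -3.77 ± 0.86 (adjusted p = 0.0234) shrank to -0.19 (adjusted p = 0.947). Fga, fibrinogen alpha chain, the most abundant of the list, went from 17429, 27337 and 16158 CPM to 9438, 12643 and 9709 CPM without overlap and did not pass (-0.94 ± 0.34, adjusted p = 0.115; -0.66 without replicate 2).

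Of 31 genes of protein folding and stress 3 fell, against 1.35% of all tested genes. Without replicate 2 the count was 1, Ddit3 (named after its values were seen), a transcription factor of the stress response. Atf4, the factor above it in the integrated stress response, had 345, 341 and 216 CPM and 219, 168 and 171 CPM (-0.69 ± 0.17, adjusted p = 0.0281, edgeR; -0.59 without replicate 2). Its targets Chac1, of glutathione breakdown, and Trib3, a pseudokinase, had 16.4, 22.1 and 4.30 and 111, 7.70 and 21.5 CPM at 48 against 3.90, 0.702 and 3.25 and 15.8, 3.28 and 9.57 CPM at 72, with -2.41 ± 0.64 (adjusted p = 0.038; -1.93 without replicate 2) and -2.27 ± 0.64 (adjusted p = 0.0496; -2.77 without replicate 2). Trib3 was high in replicate 1 alone, and without the libraries with Y-linked transcripts it was -0.58. The chaperone gene Hspa5 had 3528, 3149 and 3341 CPM and 1871, 3302 and 2172 CPM and was not called. Of 32 growth factor and cytokine genes 1 fell, against 1.35% of all tested genes, and 0 were called without replicate 2. It was Igfbp1, a secreted binder of insulin-like growth factors, which went from 1518, 1599 and 566 CPM to 253, 65.5 and 50.9 CPM. Its log2 fold change was -3.32 ± 0.74 (adjusted p = 0.0205, edgeR) and held its size without replicate 2 (-3.07, adjusted p = 0.111). Igfbp4, the most abundant gene of that list, had 2872, 1289 and 2325 CPM and 2416, 1742 and 1547 CPM.

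Of 23 immediate early genes, Ier3 alone fell, from 13.6, 219.6 and 6.14 CPM to 10.7, 5.62 and 7.85 CPM, and its -3.30 ± 0.72 (adjusted p = 0.0194) was -0.27 (adjusted p = 0.868) without replicate 2; Jund had 217, 249.8 and 184 CPM and 172, 187 and 262 CPM. Of 45 ribosome biogenesis genes 43 had a negative fold change and 1 fell, the nucleolar helicase gene Ddx21 (151, 211 and 115 CPM to 94.0, 90.1 and 117 CPM, -0.66 ± 0.19, adjusted p = 0.0481; -0.40 without replicate 2). Their median was -0.36, and -0.18 without replicate 2, which was the highest of 6 libraries in 33 of the 45, against 30.1% of all tested genes. Ncl, nucleolin, had 546, 1056 and 464 CPM and 504, 463 and 699 CPM. Of 19 clock genes Rora fell, from 562, 374 and 389.6 CPM to 321, 289 and 245 CPM (-0.63 ± 0.18, adjusted p = 0.0464, edgeR, and -0.73 without replicate 2). Bhlhe40 had 159, 303 and 116 CPM and 139.6, 128 and 172 CPM. Of all tested genes 1.35% fell, and without replicate 2 the immediate early, ribosome biogenesis and clock lists held 0 calls.

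Interferon response genes, which are part of antiviral defence, rose in 9 of 36 tested genes, against 1.58% of all tested genes. All 36 had a positive fold change with and without replicate 2. The median was 1.55, and 1.25 without replicate 2, when 0 were called. The values by library show that 1 library at 72 carries most of this. The list's mean log2 CPM was 3.51, 2.73 and 4.30 at 48 and 4.16, 4.12 and 6.39 at 72, and the 6.39 belongs to replicate 3, the library with Y-linked transcripts. Within the libraries without those transcripts the median fold change was 0.33, and without old 72 replicate 3 it was 0.45. Rsad2, viperin, was at 11.1, 5.87 and 23.1 CPM and 20.5, 15.9 and 288 CPM (3.02 ± 0.80, adjusted p = 0.038, edgeR; 2.66 without replicate 2), and at 0.34 within the libraries without Y-linked transcripts. Cxcl10, a chemokine for T cells, had 0.889, 0.203 and 1.02 CPM and 1.64, 1.40 and 21.1 CPM (3.49 ± 0.89, adjusted p = 0.0332; 3.06 without replicate 2; 1.29 within those libraries), Usp18, which removes ISG15, 5.33, 5.27 and 10.02 CPM and 7.80, 12.4 and 41.9 CPM (1.59 ± 0.41, adjusted p = 0.0332; 1.44 without replicate 2; 0.40 within those libraries), and Gbp7, a GTPase, 34.9, 22.9 and 54.6 CPM and 68.1, 62.9 and 164 CPM (1.39 ± 0.37, adjusted p = 0.0401; 1.14 without replicate 2; 0.76 within those libraries). Iigp1, the most abundant gene not called, had 770.0, 471 and 694 CPM and 693, 754 and 1015 CPM. The sum over 28 Kupffer cell and monocyte markers was also highest in that library, with 1119, 636 and 1668 CPM at 48 and 1641, 1214 and 2357 CPM at 72; its part in the interferon values was not tested.

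**Figure D5:**
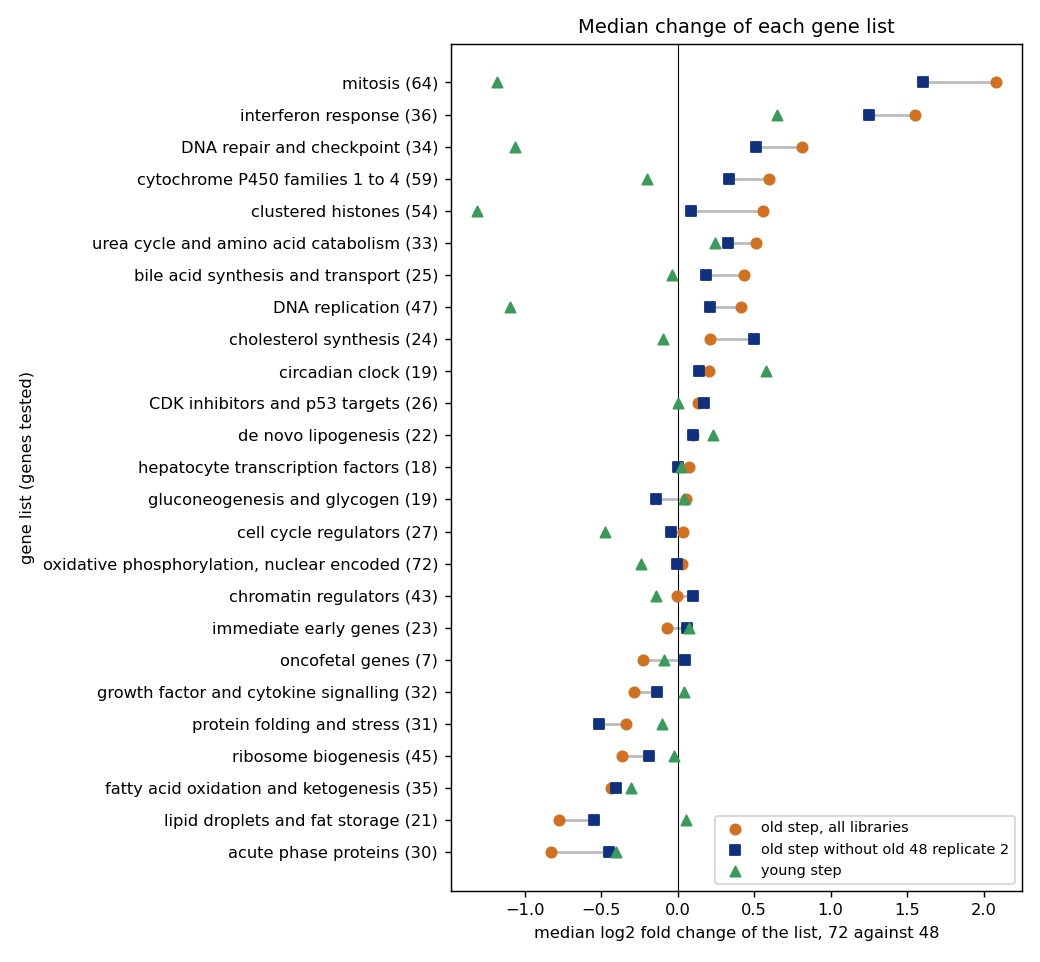
Median log2 fold change, 72 against 48, of the 25 gene lists (genes tested in brackets) in old liver over all libraries, in old liver without old 48 replicate 2, and in young liver. The mitosis median is 2.08 and 1.601 in old liver and -1.18 in young liver, and most lists lie nearer to 0 without replicate 2.

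The step can be placed against the resting liver. Against old livers before regeneration, edgeR called 3269 of 13436 genes at 48 (24.3%), 1648 higher (12.3%) and 1621 lower (12.1%). Without replicate 2, a fit chosen after seeing the data, it called 2329 of 13682 genes at 48 (17%), 1280 higher (9.36%) and 1049 lower (7.67%). At 72 the fit without replicate 2 called 2128 of 13682 genes against before. With all libraries edgeR called 1696 at 72 (12.6%), 901 higher (6.71%) and 795 lower (5.92%). Between 72 and 96 it called 0 genes (0%), with 420 at an unadjusted p under 0.05. These comparisons share libraries, so their counts are given side by side only. Mitosis genes were called higher than before in 15 of 64 at 48, in 39 of 64 at 48 without replicate 2, and in 61 of 64 at 72. DNA replication genes were called higher in 11 of 47 at 48, 18 without replicate 2, and 23 at 72. Acute phase genes were called higher in 21 of 30 at 48, 15 without replicate 2, and 7 at 72. Ribosome biogenesis genes were called higher in 28 of 45 at 48, 21 without replicate 2, and 4 at 72, where 6.71% of all tested genes were. P450 genes were called lower in 13 of 59 at 48, 11 without replicate 2, and 3 at 72, a share near that of all tested genes. Urea cycle and amino acid genes were called lower in 19 of 33 at 48, 17 without replicate 2, and 7 at 72. Lipogenesis genes were called lower in 17 of 22 at 48, 15 without replicate 2, and 16 at 72, with medians of -1.77 at 48 and -1.86 at 72. These list counts at 72 come from the fit with all libraries. Without replicate 2 the counts higher at 72 were 62 for mitosis, 24 for DNA replication, 8 for acute phase and 8 for ribosome biogenesis. Counts lower at 72 were then 6 for P450, 8 for urea cycle and amino acid genes and 18 for lipogenesis.

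In young liver the medians of the mitosis and DNA replication lists were negative for the same step, with few calls. EdgeR called 165 of 13436 genes between young 48 and young 72 (1.23%), 48 higher (0.357%) and 117 lower (0.871%). The mitosis list had a median of -1.18 there, with 2 of 64 genes called lower, and its mean log2 CPM was 5.98, 5.01 and 6.07 at 48 and 4.96, 5.03 and 3.28 at 72, so 2 of the 3 young libraries at 72 lay at the level of the lowest at 48 and the last well below. The DNA replication list had a young median of -1.098, with 7 of 47 genes called lower, and the CDK inhibitors and p53 targets had a median of 0.0043 with 0 of 26 called. Of the 212 genes that rose in old liver, 114 had a positive and 98 a negative fold change in young liver, and of the 181 that fell, 65 and 116. Over all tested genes Spearman's rho between the fold changes of the ages was 0.055, and 0.17 without replicate 2. Pearson's r was -0.0043 and 0.12. These are across 13436 genes, which are not independent replicates, and the ages share no library.

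The difference between the steps was tested directly. EdgeR called 320 of 13436 genes (2.38%), 260 with a more positive change in old liver (1.94%) and 60 with a more negative one (0.447%). Without old 48 replicate 2 the count was 59 of 13682 (0.431%), 53 more positive (0.387%) and 6 more negative (0.0439%), and within the 12 libraries alone it was 0, while 1407 genes had an unadjusted p under 0.05. Of the 64 mitosis genes, 47 were called with a more positive change in old liver, and 8 without replicate 2. For DNA replication the calls were 11 and 2 of 47, and for DNA repair 14 and 3 of 34. Clustered histones had 7 and 0 of 54, and interferon genes 0 of 36 in both fits. Called or not, the median difference was 3.38 for mitosis, 1.42 for DNA replication and 1.89 for DNA repair. It was 1.84 for clustered histones and 1.03 for interferon genes. All these medians include old 48 replicate 2. Without that library the old step's own medians went from 2.08 to 1.601 for mitosis, 0.42 to 0.21 for DNA replication and 0.81 to 0.51 for DNA repair. They went from 0.56 to 0.09 for clustered histones and from 1.55 to 1.25 for interferon genes.

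Genes named for this difference were those with the smallest p in each direction. Cdkn2c differed by 3.09 ± 0.53 on the log2 scale (adjusted p = 0.00658; 2.82, adjusted p = 0.025, without replicate 2): it rose in old liver and was at 189, 101 and 201 CPM at young 48 and 74.0, 90.4 and 29.8 CPM at young 72. Gas2l3, which links microtubules and actin in cytokinesis, was at 12.4, 13.6 and 27.4 and 37.1, 82.4 and 50.7 CPM in old liver and at 114, 69.3 and 119.7 and 53.2, 59.8 and 26.0 CPM in young liver (2.79 ± 0.48, adjusted p = 0.00658). The exonuclease gene Eri2 was at 22.7, 15.8 and 26.2 and 32.4, 57.3 and 38.3 CPM in old and 79.7, 55.4 and 88.7 and 33.5, 36.9 and 24.7 CPM in young liver (2.22 ± 0.38, adjusted p = 0.00658). Lin54, the DNA-binding subunit of the MuvB complex, was nearly level in old liver (23.3, 22.5 and 25.4 and 28.3, 27.8 and 27.2 CPM) and fell in young liver (69.3, 51.0 and 54.2 to 30.02, 28.4 and 20.4 CPM; difference 1.37 ± 0.24, adjusted p = 0.00658). All 4 held their call without replicate 2.

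In the other direction, Cpxm1, a carboxypeptidase-like secreted protein, fell in old liver (4.67, 16.8 and 1.43 to 1.03, 1.17 and 1.72 CPM) and rose in young liver (0.980, 0.776 and 0.986 to 7.27, 8.99 and 3.31 CPM), a difference of -5.31 ± 0.91 (adjusted p = 0.00658, edgeR; -3.96, adjusted p = 0.0284, without replicate 2). Spp1, osteopontin, was at 43.6, 198 and 45.6 and 19.5, 21.8 and 36.6 CPM in old liver and rose in young liver from 26.3, 27.2 and 16.5 to 101, 261 and 23.7 CPM (-4.34 ± 0.85, adjusted p = 0.0107; -3.22, adjusted p = 0.0531). Flad1, FAD synthetase, fell in old liver and rose in young liver (-1.37 ± 0.24, adjusted p = 0.00658, edgeR). Secisbp2, a factor of selenoprotein synthesis, had -1.25 ± 0.25 (adjusted p = 0.0107, edgeR) and -1.02 without replicate 2 (adjusted p = 0.0509, edgeR).

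Marker genes of other liver cells were read beside these results. Of 33 stellate cell and matrix markers 0 were called in the old step, with a summed level of 1739, 1754 and 1198 CPM at 48 and 1191, 1185 and 1072 CPM at 72, and none of the 33 was at 0 in the libraries at 48. In young liver 5 of the 33 were called higher at 72, against 0.357% of all tested genes. The step was called more negative in old liver for 6 (0 without replicate 2), against 0.447% of all tested genes. The median difference over the 33, with old 48 replicate 2 included, was -1.40. Their median in the old step itself was -0.50, and -0.31 without that library. The 9 cholangiocyte markers, which include Spp1, summed to 87.4, 232.6 and 86.1 CPM at 48 and 70.8 to 78.5 CPM at 72. Endothelial markers summed to 1070 to 1404 CPM at 48 and 1003 to 1207 CPM at 72. The 22 lymphocyte markers summed to 16.7, 18.0 and 48.1 CPM at 48 and 34.5 to 57.5 CPM at 72, and in old 48 replicate 1 a total of 12 of them were at 0. Pancreas markers were near 0 in all 6 libraries, at 3.45 CPM or less. Of the 24 cell-type genes of endothelium tested 0 were called. Of 25 Kupffer cell and monocyte genes 1 fell, against 1.35% of all tested genes, and 0 were called without replicate 2. It was Itgam, an integrin of myeloid cells, named after its values were seen, with a log2 fold change of -2.60 and of -0.75 without replicate 2. The part of these cell types in the other results was not tested.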

How the data were processed

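The authors deposited 1 table of whole-number counts per gene symbol for each of 36 libraries (21955 symbols, none normalized), per the file headers and values; the submitters' processing notes name bcl2fastq 2.20.0, Trimmomatic 0.39, STAR 2.7.5b, featureCounts and GRCm38 (mm10), without order, settings or annotation. Use of strand is not given in the sources used here, so overlapping and antisense genes are uncertain. ERCC spike-ins are described, but 0 of their rows are in the tables, and 27 symbols read as dates. Groups came from the titles. Total counts ran from 2328233 to 6034446 (median 4439170). Counts were scaled by TMM, filtered with filterByExpr on 12 groups (13436 genes; 13682 without old 48 replicate 2) and fitted with edgeR 4.0.16 in R 4.3.3, 1 mean per group and quasi-likelihood F tests. Calls are genes with a Benjamini-Hochberg adjusted p under 0.05 over all genes tested. The step difference was the contrast of both steps. The script was tested on simulated data. Limma 3.58.1 and DESeq2 1.42.0 were alternatives.

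Named genes were, for the step, up to 8 genes per direction, by size of change, that were called both with and without old 48 replicate 2, with no overlap and a mean of at least 1 CPM; per list, up to 4 called genes with the smallest p and the most abundant gene not called; 18 fixed genes (Mki67, Top2a, Ccnb1, Cdk1, Ccna2, Mcm2, Rrm2, Ccnd1, Foxm1, Myc, Cdkn1a, Ezh2, Uhrf1, Alb, Afp, Hnf4a, Thrsp, Cyp7a1); and, for the step difference, 4 per direction with the smallest p. Predicted genes, pseudogenes and RIKEN clones were left out. The samples, the 25 pathway lists, the 15 marker lists and these rules were chosen with earlier results of these data known. Some genes that these rules pick are not reported here.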

Additional observations from a re-analysis of the deposited data

Results flagged for a closer look

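These 8 genes, named for their small p, are given because the contrast of old step minus young step passed edgeR's test (adjusted p from 0.00658 to 0.0107). More positive in old liver were Cdkn2c (3.09 on the log2 scale), Gas2l3 (2.79), Eri2 (2.22) and Lin54 (1.37). More negative in old liver were Cpxm1 (-5.31), Spp1 (-4.34), Flad1 (-1.37) and Secisbp2 (-1.25). Without old 48 replicate 2 the values were 2.82, 2.63, 2.05, 1.35, -3.96, -3.22, -1.17 and -1.02, and Spp1 and Secisbp2 were then no longer called (adjusted p = 0.0531 and 0.0509, edgeR). In the old step itself Lin54, Spp1 and Secisbp2 were not called. With 3 libraries in a group, single libraries within a group were not tested for standing apart.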

How the results depend on the processing

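The direction of the mitosis, acute phase and fat storage medians held in every alternative run. The same held for DNA replication, clustered histones, DNA repair, interferon, P450, urea cycle, fatty acid oxidation, ribosome biogenesis, protein folding and other lists. Sizes varied, with the DNA replication median at 0.044 without old 48 replicates 2 and 3. The cholesterol synthesis median turned, to -0.31 within the libraries without Y-linked transcripts and to -0.12 without old 72 replicate 3. Without old 48 replicate 2 the medians of glucose and glycogen (to -0.14), cell cycle regulators (to -0.045) and oxidative phosphorylation (to -0.0027) also turned. Chromatin regulators (to 0.098), immediate early genes (to 0.062) and oncofetal genes (to 0.050) turned there as well. Without old 48 replicates 2 and 3, hepatocyte transcription factors (to -0.089) and de novo lipogenesis (to -0.039) turned. For the old step the number of calls, 393, became 255 without a filter on low counts, 722 with DESeq2, 21 with limma's voom and sample weights, 609 with the class of Y-linked transcripts as a term, 2 within the libraries without such transcripts, and 0 by edgeR with only the groups compared, with and without old 48 replicate 2 (985 and 909 at an unadjusted p under 0.05). Leaving out 1 library at a time gave 11 to 1569 calls. For the step difference, 320 became 208 with total-count scaling, 198 with limma's voom and sample weights, 9 within the libraries without Y-linked transcripts, and 0 by edgeR with only the groups compared, with and without old 48 replicate 2 (1407 and 1233 at that level). Leaving out 1 library at a time gave 39 to 848 calls. Chosen after seeing the data, a fit without old 48 replicates 2 and 3 gave 141 and 122 calls, where the lone library at 48 is assumed to vary like the other groups, and a fit with the Y-linked class and without replicate 2 gave 33 and 178. Also added then, a fit without old 48 replicate 2 gave 2329 calls in place of 3269 for old 48 against before and 2128 in place of 1696 for old 72 against before. Of the 60 called genes that the naming rules pick, 8 kept their call without old 48 replicate 2, 6 without old 72 replicate 2, 13 without old 72 replicate 3 and 60 without old 48 replicate 3.

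Replicate numbers did not pair the samples: same-numbered libraries at 48 and 72 deviated from their group means with correlations of -0.085, -0.119 and -0.212, and 0 of 3 correlated best with its own number. With a replicate block (the number, within each age), 398 genes were called for the old step and 317 for the step difference.

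The direction turned under an alternative for the genes below, of which Plin4 is the only called one. With 1 library left out at a time, the log2 fold changes ran from -0.020 to 0.33 for Hist1h1e, -0.49 to 0.68 for Ccnd1, -0.53 to 0.14 for Ncl, -0.27 to 0.052 for Jund, -0.44 to 0.075 for Igfbp4, -0.089 to 0.88 for Slco1b2, -4.19 to 0.32 for Plin4, -0.66 to 0.098 for Bhlhe40, -0.045 to 0.11 for Atp5a1, -0.21 to 0.96 for Mcm2 and -0.080 to 0.63 for Afp. With limma's voom and sample weights, they were -0.29 for Ccnd1 and -0.036 for Mcm2. With only the groups compared and without old 48 replicate 2, they were -0.49 for Ccnd1, 0.14 for Ncl, 0.052 for Jund, -0.092 for Slco1b2, 0.32 for Plin4, 0.099 for Bhlhe40 and -0.21 for Mcm2. With the class of Y-linked transcripts as a term, it was -0.032 for Ccnd1. Without old 48 replicates 2 and 3, they were -0.19 for Ccnd1, -0.17 for Msh6, 0.027 for Ncl, -0.16 for Slco1b2, -0.091 for Atp5a1, 0.40 for Peg3 and -0.73 for Mcm2. With that class as a term and without old 48 replicate 2, they were -0.58 for Ccnd1, 0.14 for Ncl, 0.080 for Jund, -0.098 for Slco1b2, 0.41 for Plin4, 0.11 for Bhlhe40 and -0.14 for Mcm2. With total-count scaling, it was 0.022 for Jund. Within the libraries without Y-linked transcripts, it was 0.21 for Igfbp4. The cause was not tested. Depth limits low genes: 3 counts correspond to 0.574 to 0.702 CPM in the 6 libraries.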

Other observations

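Summed levels of sex-biased hepatic genes differed between libraries of the same class of Y-linked transcripts. Over 12 genes known to be higher in female liver, the summed level was 595 CPM there against 1186 CPM in old 48 replicate 3, 2001 and 2062 CPM in old 72 replicates 1 and 2, and 150.3 and 110.5 CPM in the libraries with Y-linked transcripts at 48 and 72. Over 12 genes known to be higher in male liver it was 126 CPM in replicate 2 and 405 to 1065 CPM in the other libraries without Y-linked transcripts. Xist was at 3410 CPM in replicate 2, beside 3115 to 3605 CPM in those libraries.

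Leaving that library out also added 3 calls, named after their values were seen. Aspg, an asparaginase, was at 21.8 and 19.2 CPM in old 48 replicates 1 and 3, at 91.0 CPM in replicate 2, and at 48.0, 87.1 and 65.9 CPM at 72, with a log2 fold change of 1.71 without replicate 2 and 0.60 with it. Gstt3, a glutathione transferase, was at 18.7, 61.0 and 27.0 CPM at 48 and 49.5, 108.3 and 107.6 CPM at 72 (1.95 and 1.31). Ddit3, of the stress response, was at 114.9, 7.29 and 30.7 CPM at 48 and 25.0, 18.0 and 10.3 CPM at 72 (-2.02 and -1.51). Adjusted p-values without replicate 2 were 0.0249 for Aspg and 0.0415 for Gstt3 and Ddit3 (edgeR).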
